A study of Rattus norvegicus with 9 samples.

Results

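The dopamine and adrenergic receptors are the cell surface proteins through which the catecholamines dopamine, noradrenaline and adrenaline act. The 9 genes described here, Drd1, Drd2, Drd5, Adra1a, Adra1b, Adra1d, Adra2a, Adra2c and Adrb1, were chosen by name, and all 9 of 9 were found among the 22093 genes with 1 symbol on a Clariom D rat array, a microarray that reads transcripts with many short probes each. For Adra1a, which had a pair of rows, the brighter was used. Signals were compared in 3 groups of 3 arrays, all from male rats without a stated strain, age or genetic change. One group was bilateral hippocampus of rats given transcranial focal stimulation (TFS), a current applied through the scalp, at 300 Hz and 50 mA for 5 min, with tissue taken 4 h later. The others were bilateral hippocampus and bilateral parietotemporal cortex of sham rats, which were handled alike without current. Stimulated cortex was not analysed here. Nothing in the labels ties an array to an animal of its own, so the p-values reflect only how these samples spread, which may be technical.

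All 9 receptors couple to G proteins. Drd1, Drd5 and Adrb1 raise the second messenger cAMP through stimulatory G proteins, Drd2, Adra2a and Adra2c lower it through inhibitory ones, and Adra1a, Adra1b and Adra1d act through phospholipase C and calcium. In the forebrain, dopamine reaches its receptors from midbrain neurons and noradrenaline from the locus coeruleus, so the receptor transcripts lie in the target tissue and the transcripts of the enzymes that make the transmitters lie mostly in the brainstem. Drd1 and Drd2 are best known for their high expression in the projection neurons of the striatum, which lies beneath the cortex. In bulk tissue, fewer cells of a type and less RNA per cell cannot be told apart.

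Signals are given on the log2 scale, where a difference of 1 is a doubling, and levels of different genes are not compared because each has its own probes. Of 1153 negative controls on the array, 95% averaged under 7.57. The signals of 8 of the 9 receptors lay under that limit on all 9 arrays, and those of Adrb1 lay above it on 2 cortical arrays. Of the 15522 tested genes, 4466 had a mean above the limit, so most genes lay under it as well. The median of the negative controls was lower, from 4.055 to 4.213 over the arrays. A signal under the limit is not shown to be background, but its difference between groups measures signal and not the ratio of transcript. Drd2, Adra1a and Adra2c share a value exactly between 3 or 4 arrays. Array medians ran from 4.96 to 5.04. The first principal component of the tested genes held 67.9% of the variance and separated hippocampus from cortex, and the second, with 8.96%, set apart the sham hippocampal and the sham cortical array that both carry number 1.

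The clearest difference among these receptors lay between the brain regions. Adra1b and Adrb1 were lower in sham hippocampus than in sham cortex, with differences of -0.78 and -0.66 on the log2 scale. Drd5 lay in the other direction, at 0.63, without passing the test. None of the 9 receptors passed between TFS and sham hippocampus, where every difference was between -0.05 and 0.07. Tests were made with limma over 15522 genes, with p-values adjusted by the Benjamini-Hochberg method and a threshold of 0.05.

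**Figure D1:**
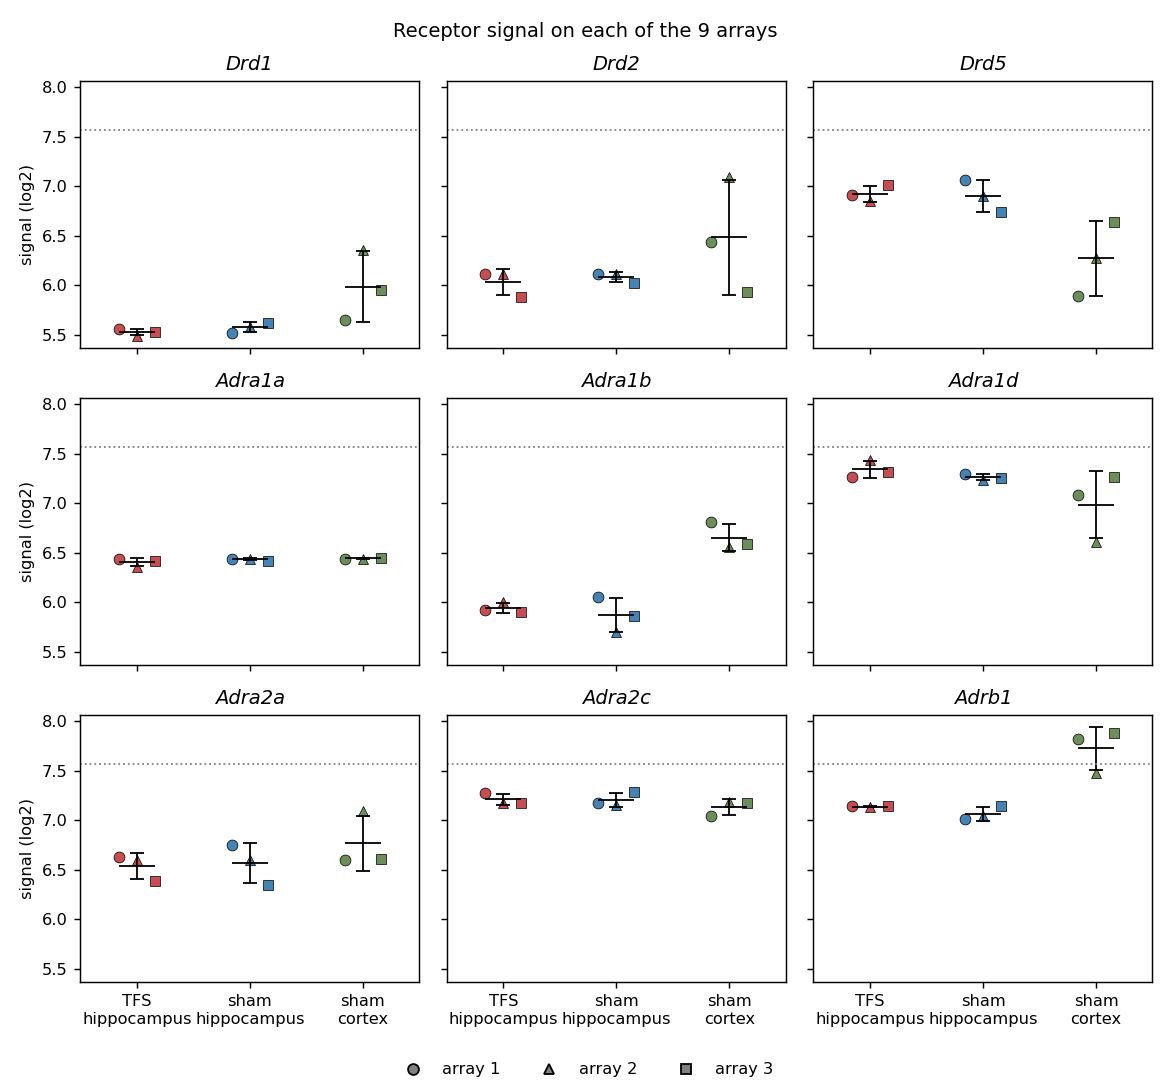
Log2 signal of the 9 receptors (y axis) on each array of TFS hippocampus, sham hippocampus and sham cortex (x axis), with symbols for array numbers 1 to 3. Bars are the mean ± SD of 3 arrays and the dotted line is the 7.57 limit of the negative controls. Adra1b and Adrb1 sit lower on all 6 hippocampal arrays than on any cortical array, and the cortical values of Drd1 and Drd2 spread widely with array 2 on top.

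Between sham hippocampus and sham cortex, 2 of 9 receptors passed the limma test, both lower in hippocampus. Over all genes tested 12.4% passed, 6.46% lower and 5.99% higher in hippocampus. The sham arrays of the regions did not overlap for 4 of the 9 receptors, Drd1, Drd5, Adra1b and Adrb1, against 24.1% of all genes. The median difference of the 9 receptors was -0.20, against -0.0044 over all genes, and 6 of the 9 differences were below 0. With 9 genes these counts describe the receptors and are not a test of them as a list.

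The 250 bases before the start of Adra1b, Adrb1 and Drd5 are shown because these receptors had the largest regional differences, a pair of them lower and the third on the other side. They are the reference sequence of RefSeq on build GRCr8, at chr10:28814348-28814597 on the minus strand, chr1:265776853-265777102 on the plus strand and chr14:76703345-76703594 on the minus strand, read 5′ to 3′ in the direction of the gene. Capitals mark GGGCGG, the GC box bound by Sp1-type factors, and TGACG, the half-site of the cAMP response element, each searched on both strands.
Adra1b: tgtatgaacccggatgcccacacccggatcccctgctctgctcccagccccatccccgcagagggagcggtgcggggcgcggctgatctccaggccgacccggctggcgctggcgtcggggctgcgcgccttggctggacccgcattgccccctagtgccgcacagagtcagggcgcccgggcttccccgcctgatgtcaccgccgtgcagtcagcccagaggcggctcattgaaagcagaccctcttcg
Adrb1: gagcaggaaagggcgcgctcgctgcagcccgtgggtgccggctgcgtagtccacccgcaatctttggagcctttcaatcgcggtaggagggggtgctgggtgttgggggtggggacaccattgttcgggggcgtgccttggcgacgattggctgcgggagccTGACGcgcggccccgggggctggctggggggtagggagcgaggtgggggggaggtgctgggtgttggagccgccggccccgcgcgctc
Drd5: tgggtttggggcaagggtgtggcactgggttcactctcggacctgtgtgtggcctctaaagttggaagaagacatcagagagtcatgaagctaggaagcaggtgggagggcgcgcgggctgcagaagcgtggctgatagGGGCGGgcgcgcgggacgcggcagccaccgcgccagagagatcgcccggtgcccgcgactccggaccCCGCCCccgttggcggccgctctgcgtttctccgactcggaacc
The window of Drd5 holds 2 GC boxes and that of Adrb1 holds 1 half-site, while that of Adra1b holds no match to either. Of all 33469 promoter windows of this length, 30.5% hold GGGCGG and 18.2% hold TGACG. The full element TGACGTCA and the TATA sequence TATAAA were found in none of the windows of 8 receptors (all but Adra1a), against 1.59% and 12.9% of all windows. GC content was 70.8% for Adra1b, 72.0% for Adrb1 and 67.2% for Drd5, against a median of 51.2% over all windows. A match describes the letters of the window and does not show that a factor binds there.

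Among the receptors that act through phospholipase C, Adra1b, the alpha-1B adrenergic receptor, differed between regions and Adra1a and Adra1d did not pass. Adra1b read 6.05, 5.70 and 5.86 on the sham hippocampal arrays, against 6.81, 6.56 and 6.59 on the sham cortical arrays. The TFS hippocampal arrays read 5.92, 6.00 and 5.90. Each of the 6 hippocampal values was lower than each of the 3 cortical ones, and the gap of the groups was wider than the range within any of them. The sham hippocampal mean was 5.87 ± 0.18 and the cortical mean 6.65 ± 0.13 (SD, n = 3 each), a difference of -0.78 (SE 0.097, 95% confidence interval -1.01 to -0.55, limma adjusted p = 0.00208). Adra1b passed in all 21 fits in which it was tested, with adjusted p from 7.77e-04 to 0.0202. All of its values lay under the negative control limit.

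Adra1d, the alpha-1D receptor, read 7.30, 7.24 and 7.26 on sham hippocampal arrays, against 7.08, 6.61 and 7.27 on sham cortical arrays. The cortical values spread over the hippocampal ones, and cortical array 2 stood lowest of all 9. The difference was 0.28 (SE 0.15, interval -0.07 to 0.63, limma adjusted p = 0.292). It was 0.09 without cortical array 2 and 0.42 without cortical array 3, with adjusted p = 0.445 and 0.0980. On TFS arrays Adra1d read 7.27, 7.44 and 7.32.

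Adra1a, the alpha-1A receptor, showed almost no spread, with all 9 values between 6.36 and 6.45. Its regional difference was -0.008 (interval -0.06 to 0.04, limma adjusted p = 0.855). The dimmer row of the gene ran from 4.33 to 4.57. Under quantile normalization the sign turned, at 2.2e-04, so no direction can be given for Adra1a.

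Adrb1, the beta-1 receptor, which raises cAMP, read 7.01, 7.04 and 7.14 on sham hippocampal arrays, against 7.82, 7.48 and 7.88 on sham cortical arrays. The TFS hippocampal arrays were nearly equal, at 7.14, 7.13 and 7.14. All hippocampal values lay below all cortical ones, and cortical array 2 was the lowest of its group. The sham hippocampal mean was 7.06 ± 0.069 and the cortical mean 7.73 ± 0.22 (SD, n = 3 each), a difference of -0.66 (SE 0.097, interval -0.89 to -0.44, limma adjusted p = 0.00439). Without cortical array 2 the difference was -0.79 (adjusted p = 2.14e-04). The call was lost in 2 of 22 fits, both chosen after seeing the data, with adjusted p = 0.0611 when both sham arrays numbered 1 were left out and 0.0511 with the array number as a block over the 6 sham arrays. The cortical mean was 0.16 above the negative control limit, or 1.12-fold, and the hippocampal mean lay below it. Cortical array 2, at 7.48, lay under that limit as well, so no least ratio of transcript can be given.

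Of the inhibitory adrenergic receptors, Adra2a, the alpha-2A receptor found on noradrenergic terminals and on their targets, read 6.75, 6.60 and 6.35 in sham hippocampus, against 6.60, 7.09 and 6.61 in sham cortex. The groups overlapped, with cortical array 2 highest. The difference was -0.20 (SE 0.16, interval -0.57 to 0.16, limma adjusted p = 0.470), and it was -0.04 without cortical array 2. Adra2c, the alpha-2C receptor, read 7.18, 7.15 and 7.29 in sham hippocampus, against 7.04, 7.19 and 7.18 in sham cortex. These groups overlapped as well, at a difference of 0.07 (interval -0.06 to 0.20, limma adjusted p = 0.475). The interval of Adra2c lies inside a 1.5-fold change in either direction, and that of Adra2a does so narrowly. With the 6 sham arrays alone the interval of Adra2a ran from -0.65 to 0.24, beyond a 1.5-fold change.

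The dopamine receptors of stimulatory type went in opposite directions between the regions without passing the test. Drd5 read 7.06, 6.90 and 6.74 on sham hippocampal arrays, against 5.89, 6.28 and 6.64 on sham cortical arrays. On TFS hippocampal arrays it read 6.91, 6.85 and 7.01. All 6 hippocampal values lay above the 3 cortical ones, narrowly for the highest cortical array. The difference was 0.63 (SE 0.18, interval 0.22 to 1.04, limma adjusted p = 0.0601). It passed in 4 of 22 fits, with adjusted p = 0.0382 after median centring, 0.0431 after quantile normalization, 0.0401 with a stricter filter on signal and 0.0139 without cortical array 3. With both sham arrays numbered 1 left out it was 0.36 (adjusted p = 0.191).

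Drd1 read 5.52, 5.58 and 5.62 on sham hippocampal arrays, against 5.65, 6.36 and 5.95 on sham cortical arrays. The hippocampal arrays stood close together and just below the lowest cortical one. The difference was -0.41 (SE 0.15, interval -0.78 to -0.05, limma adjusted p = 0.143). It was -0.23 without cortical array 2, and -0.58 without cortical array 1, the only fit of 21 in which Drd1 passed (adjusted p = 0.0248).

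Drd2, the inhibitory dopamine receptor, read 6.11, 6.11 and 6.02 in sham hippocampus, against 6.44, 7.09 and 5.93 in sham cortex. The cortical values lay on both sides of the hippocampal ones, and the SD was 0.051 in sham hippocampus and 0.58 in cortex. The difference was -0.40 (SE 0.25, interval -0.99 to 0.18, limma adjusted p = 0.366). Without cortical array 2 it was -0.10 (adjusted p = 0.703), and without cortical array 3 it was -0.68 (adjusted p = 0.0653).

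**Figure D2:**
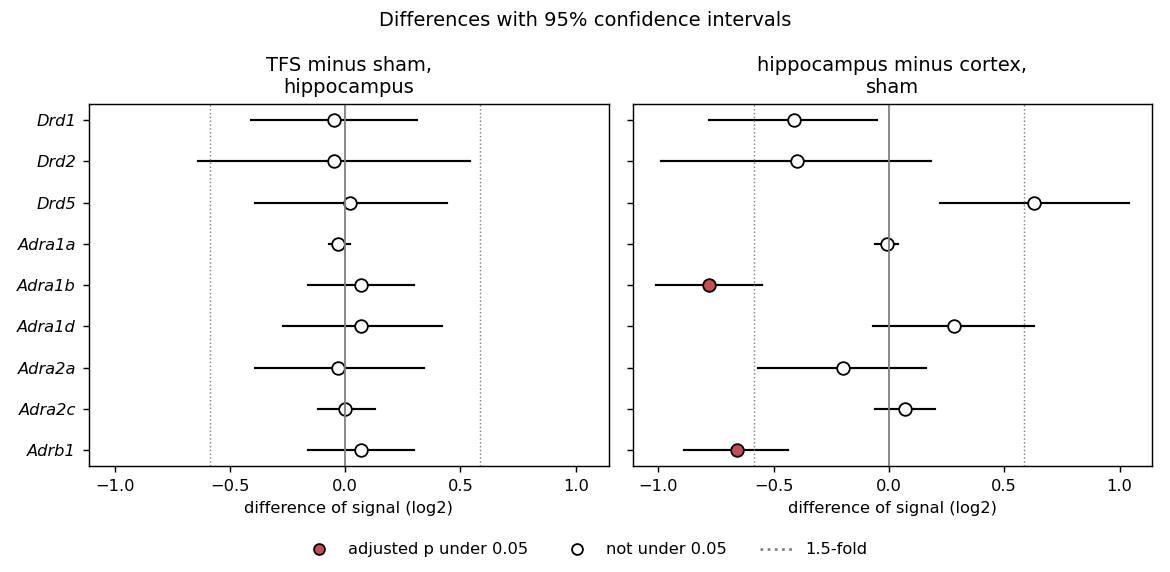
Log2 differences (x axis) of the 9 receptors (rows) between TFS and sham hippocampus, left, and between sham hippocampus and sham cortex, right. Points are limma estimates, lines are 95% confidence intervals, filled points have an adjusted p under 0.05, and dotted lines mark a 1.5-fold change. Only Adra1b and Adrb1 in the regional comparison are filled, and all points on the left lie between -0.05 and 0.07.

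In cortex, Drd1, Drd2 and Adra2a were highest on cortical array 2, and for Drd2 arrays 1 and 3 also stood apart, at 6.44 and 5.93. Array 2 stood above the mean of the other cortical arrays by 0.90 for Drd2, 0.56 for Drd1 and 0.49 for Adra2a. It stood below that mean for Adra1d and Adrb1, at -0.56 and -0.37. Of 11 markers of striatal projection neurons, 9 were highest on the same array among the 3 cortical ones, against 26.6% of all tested genes. The lead was narrow for Syndig1l (6.41 against 6.41 and 6.27) and Ppp1r1b (7.76 against 7.74 and 7.67). Tac1, which encodes the peptide precursor of substance P, and Rgs9, a regulator of G protein signalling enriched in striatum, stood 0.67 higher on cortical array 2. Penk, which encodes the precursor of enkephalin, stood 0.47 higher. Gng7, which was higher in hippocampus than in cortex, stood 0.49 higher. Summed as a mean level, the markers ran from 6.97 to 7.09 over TFS hippocampal arrays, from 6.99 to 7.05 over sham hippocampal arrays and from 7.10 to 7.38 over sham cortical arrays. The median of the 11 markers was 0.16, with Ppp1r1b at 0.05, Rasd2 at 0.02 and Six3 at -0.01. Such a count was not made for the other marker lists, so the lead is not shown to be particular to striatal markers. Of the microglial markers, Cx3cr1 (8.90 against 8.62 and 8.61), Csf1r, P2ry12, C1qa and, narrowly, Aif1 were highest on cortical array 2 too. Itgam lay between and Tmem119 was lowest. Markers of further cell types went both ways on cortical array 2. Acta2 of mural cells was highest there, at 8.37, against 7.58 and 7.32 on the other cortical arrays. Calb2 of GABA interneurons was highest too, at 7.19, against 6.33 and 6.82. From the same lists, Pecam1 of endothelium was lowest there, at 7.60, against 7.81 and 7.65. Pvalb of GABA interneurons was lowest as well, at 7.40, against 8.02 and 7.65. The part of striatal tissue in the values of Drd1 and Drd2 was not tested.

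**Figure D3:**
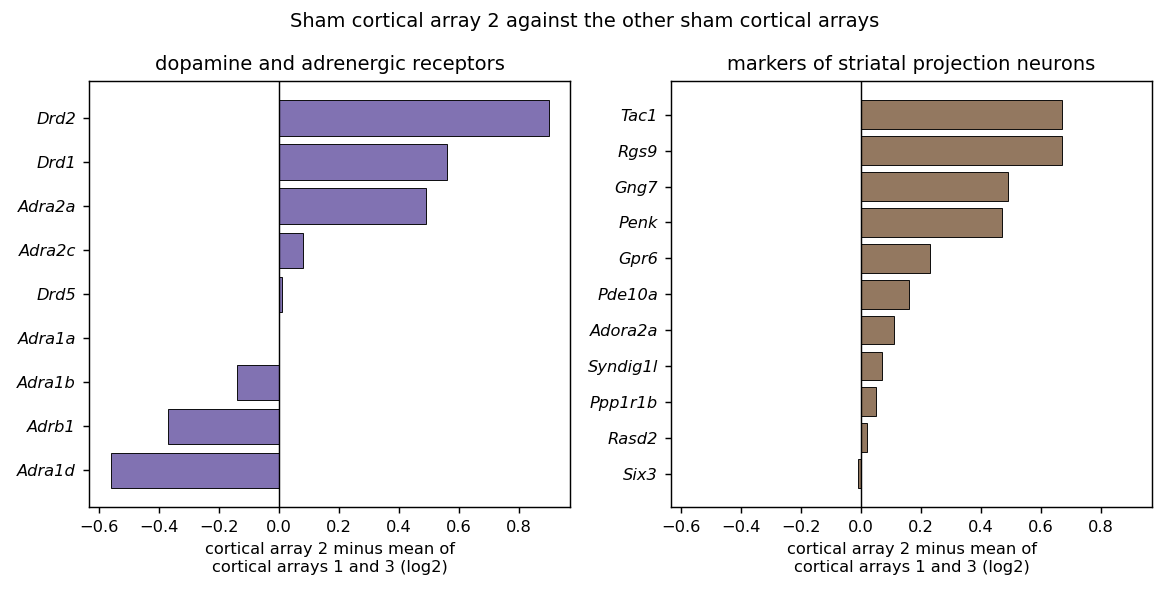
Difference between sham cortical array 2 and the mean of sham cortical arrays 1 and 3 (x axis, log2) for the 9 receptors, left, and for 11 markers of striatal projection neurons, right. Each bar is 1 gene without replicates. Drd2 at 0.90 and Drd1 at 0.56 lead the receptors, and Tac1 and Rgs9, both at 0.67, lead the markers.

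Other genes followed the 2 called receptors closely over the 9 arrays. Likeness was the root mean square difference of log2 values after each gene's own mean was subtracted. Closest to Adra1b were the potassium channel gene Kcnk4 at 0.0819, the opsin gene Opn3 at 0.0847 and the copine gene Cpne5 at 0.0868, against a median of 0.369 over all tested genes. Closest to Adrb1 were the synaptic vesicle protein gene Rph3a at 0.0509, the potassium channel gene Kcnh1 at 0.0629 and the kinase gene Lmtk2 at 0.0677, against a median of 0.318. They were picked for their likeness on the same arrays, so a similar regional difference follows from the choice.

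At 4 h after TFS, no receptor differed detectably in hippocampus. Limma called 0 of 9 receptors and 0% of all genes at an adjusted p under 0.05. At an unadjusted p under 0.05 it was 0 of 9 receptors and 5.19% of all genes. TFS and sham arrays overlapped for every receptor, so 0 of 9 were apart, against 9.77% of all genes. The signed differences were 0.07 for Adra1b, Adra1d and Adrb1, 0.02 for Drd5, 0.0045 for Adra2c, -0.03 for Adra1a and Adra2a, and -0.05 for Drd1 and Drd2. The adjusted p was at least 0.639 for every receptor in every fit tried.

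In the fit of all 9 arrays the 95% interval lay within a 1.5-fold change for 8 of the 9 receptors, and for Drd2 it ran from -0.64 to 0.54. That fit pools the spread of all groups, and cortex had the largest SD of the groups for 7 of the 9 receptors. With the 6 hippocampal arrays alone the interval lay within 1.5-fold for all 9, and for Drd2 it ran from -0.24 to 0.14. The widest bounds over the 9 receptors were then -0.34 for Adra2a and 0.32 for Adra1b. All hippocampal values of the 9 receptors lay under the negative control limit, so these intervals bound a change of signal and not of transcript. Drd1 read 5.56, 5.49 and 5.53 on TFS arrays, against 5.52, 5.58 and 5.62 on sham arrays, and Drd2 read 6.11, 6.11 and 5.88 on TFS arrays, against 6.11, 6.11 and 6.02 on sham arrays. Adra2a read 6.63, 6.60 and 6.39 on TFS arrays and Adra2c 7.28, 7.18 and 7.18, inside or next to their sham ranges. Because the sham hippocampal arrays serve in both comparisons, the regional and the TFS differences are not independent.

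The rest of the pathway was followed in 7 lists with 68 measured genes, of which 63 had enough signal to be tested. Between sham hippocampus and sham cortex 15 of these 63 passed the limma test, 5 higher and 10 lower in hippocampus. That is 23.8% of the tested pathway genes, beside 12.4% of all genes. The lists were chosen with earlier results of these data known. Their shares, here and below, describe the genes and are not a test of an excess. With the array number as a block over the 6 sham arrays, 3 passed. The share of all genes called in that smaller fit is not given here, so the drop is not shown to be particular to these genes.

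Of the 16 genes downstream of cAMP, the longest list, 6 were lower in hippocampus and 0 higher, with a list median of -0.15. Over all genes 6.46% were lower and 5.99% higher. Prkar2b, a regulatory subunit of protein kinase A, the main target of cAMP, read 7.09, 7.24 and 7.31 in sham hippocampus, against 7.99, 7.89 and 8.04 in sham cortex (difference -0.76, limma adjusted p = 4.14e-04). The arrays of the regions do not overlap. The catalytic subunit Prkacb and the regulatory subunit Prkar1b of the same kinase were lower, at -0.44 and -0.20. The phosphodiesterases Pde7b and Pde4d, which break cAMP down, were lower, at -0.48 and -0.37. Ppp1r1b, which encodes the dopamine-regulated phosphatase inhibitor DARPP-32, was lower, at -0.29 (adjusted p = 0.0144). Of 9 adenylyl cyclases, the enzymes that make cAMP, Adcy8 was lower, at -0.54, and Adcy3 was higher by 0.18. Every value of Adcy8 lay under the negative control limit.

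Genes of the branch through phospholipase C moved both ways, with 2 of 10 lower, 2 higher and a list median of -0.0098. That is 4 of 10 called, beside 12.4% of all genes. Plcb4, a phospholipase C isoform, read 6.04, 6.04 and 6.11 in sham hippocampus, against 7.40, 7.03 and 6.95 in sham cortex. The difference was -1.06 (SE 0.11, limma adjusted p = 9.94e-04), and all 9 values of Plcb4 lay under the negative control limit. The protein kinase C gene Prkca was higher in hippocampus by 0.58 (adjusted p = 1.40e-04) and Prkcb lower, at -0.24 (adjusted p = 0.0282), while the diacylglycerol kinase gene Dgkb was higher by 0.64 (adjusted p = 0.0217). Among 10 G protein alpha subunits, Gna14 and Gna11, both of the class that activates phospholipase C, were higher by 0.62 and 0.23 and none was lower. Every value of Gna14 lay under the negative control limit. No receptor kinase or arrestin passed of 7 tested by limma, although 3 had an unadjusted p under 0.05. The share of all genes at that unadjusted level is not given for the regional comparison. Grk2, a kinase that switches off active receptors, was closest at -0.26 (adjusted p = 0.0512).

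Of the 15 called pathway genes, 9 (Adcy3, Gna11, Gna14, Pde4d, Pde7b, Plcb4, Prkacb, Prkar2b and Prkca) passed whichever single array was left out. Plcb4, Prkar2b and Prkca were the 3 that also passed with the block over the sham arrays. The call of Ppp1r1b was lost without cortical array 1 (adjusted p = 0.0540), that of Prkar1b without cortical array 1 or 2 (0.0778 and 0.0517) and that of Slc22a3 without sham hippocampal array 2 or 3 (0.0742 and 0.0829). Dgkb was lost without cortical array 1 or any 1 sham hippocampal array (adjusted p up to 0.0818), and Adcy8 and Prkcb each without any 1 of 6 of the 9 arrays (up to 0.0925 and 0.0941). Some pathway genes outside the 15 passed with 1 array left out, among them Gnal, the stimulatory alpha subunit used in striatum, at 0.71 without cortical array 2 (adjusted p = 8.44e-04, against 0.49 and 0.128 with it), and Adra2b at -0.17 without cortical array 3 (adjusted p = 0.0254).

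Genes that make, carry and clear catecholamines gave 1 call in 9 tested, near the share of 12.4% over all genes. Slc22a3, which encodes a low-affinity monoamine transporter, was lower in hippocampus, at -0.21 (limma adjusted p = 0.0219), and 0 were higher. The values of Slc22a3 ran from 5.02 to 5.39, under the negative control limit and little above the filter of 4.99. Th, the rate-limiting enzyme of catecholamine synthesis, read 5.88, 5.80 and 5.83 in sham hippocampus, against 6.24, 5.92 and 6.52 in sham cortex, a difference of -0.39 (adjusted p = 0.114). It passed without cortical array 2 (-0.54, adjusted p = 0.00893). Dbh, Slc6a2 and Slc18a2, which define noradrenergic or monoaminergic cell bodies, were too dim to be tested and had no value above 5.01 on any array. Of the receptors outside the 9, Drd4 differed by -0.02 and Adra2b by -0.12 (adjusted p = 0.792 and 0.128), and Drd3 and Adrb3 were too dim to be tested.

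After TFS, 0 of the 63 pathway genes passed the limma test, and 7 had an unadjusted p under 0.05, beside 5.19% of all genes. Slc29a4, the plasma membrane monoamine transporter, had the largest difference of the 7. It read 8.03, 7.85 and 7.62 on TFS hippocampal arrays, against 7.51, 7.41 and 7.62 on sham hippocampal arrays. The lowest TFS value stood above the highest sham value only beyond the printed decimals, and the difference was 0.33 (SE 0.11, limma adjusted p = 0.904). Adra2b, the alpha-2B receptor, differed by 0.13, Prkar1b by 0.11, Prkca and Rapgef4 by 0.09, Gnao1 by 0.08 and Gch1 by -0.12, with adjusted p of at least 0.900.

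**Figure D4:**
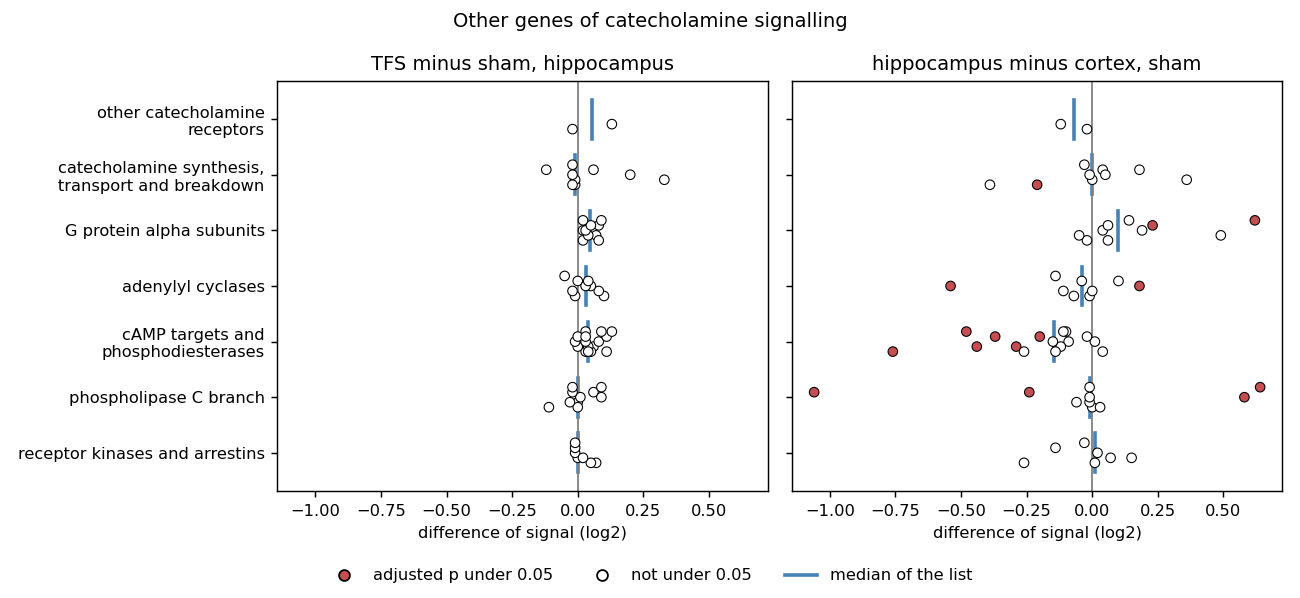
Log2 differences (x axis) of the tested genes of 7 lists of catecholamine signalling (rows) between TFS and sham hippocampus, left, and between sham hippocampus and sham cortex, right. Each point is a gene, filled where the adjusted p was under 0.05, and blue bars are list medians. Filled points appear only on the right, where 6 cAMP genes lie below 0 and Plcb4 lies farthest left at -1.06.

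Markers of the dissected tissue fitted the labels, and some markers of other cells differed between the regions as well. The counts stand beside 12.4% of all genes called, 6.46% lower and 5.99% higher in hippocampus. A single call in a list of 6 to 9 markers is near the 12.4%. Prox1 of dentate granule cells was higher in sham hippocampus by 1.89 (limma adjusted p = 1.82e-05), and Lamp5 and Tbr1 of cortical neurons were lower, at -1.49 and -1.20 (adjusted p = 3.21e-04 and 3.93e-04). Of 11 cortical layer markers 6 were lower and 2 higher in hippocampus. Of 10 markers of GABA interneurons 5 were lower and 0 higher, among them Vip at -1.02 and Sst at -0.64, and the mean level of the list ran from 7.95 to 8.06 over sham hippocampal arrays and from 8.31 to 8.39 over sham cortical arrays. Of 9 markers of hippocampal fields 4 were higher, and of 7 oligodendrocyte markers 2 were. Of 11 striatal markers 1 was higher and 3 were lower, and of 8 markers of monoamine neuron cell bodies 1 was lower. Astrocyte markers had 1 of 8 higher, markers of endothelium and mural cells 1 of 9 lower and microglial markers 0 of 7 called. Of 6 choroid plexus markers 1 was higher, Ttr at 3.30. Whether these cell types carry the differences of Adra1b and Adrb1 was not tested. After TFS, 0 members of the 10 marker lists passed the limma test, and 5 had an unadjusted p under 0.05, beside 5.19% of all genes. The 5 were 2 of 8 astrocyte markers, 1 of 9 of hippocampal fields, 1 of 7 of oligodendrocytes and 1 of 7 of microglia. Ttr, which encodes transthyretin, varied widely within hippocampus, at 11.19, 11.34 and 8.82 on TFS arrays, against 10.64, 10.35 and 11.56 on sham arrays.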

How the data were processed

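The authors deposited log2 signals for 9 Clariom D rat arrays, 1 value per transcript cluster or control. RMA and limma are named, without versions, per the submitters' processing notes. The genome build was not given in the sources used here.

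From the 70580 rows of the table, 1738 controls were dropped. Rows with 1 gene symbol (23446, against 505 with several and 44891 with none) gave 22093 genes, and the brightest row stood for a gene. Tests covered 15522 genes with a mean of at least 4.99, the median row mean, and all 9 receptors were among them. All 9 arrays entered one model with a mean for each group (limma 3.58.1, R 4.3.3, lmFit and eBayes, two-sided), with Benjamini-Hochberg adjustment over the genes tested. Single values of 3 against 3 arrays cannot reach an exact p below 0.1. Precision is limited by the number of arrays. The model was tested on simulated data.

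Receptors and lists were chosen with earlier results of these data known. Named genes were all receptors, up to 4 genes of smallest p per pathway list plus every gene that passed, and the 3 genes most like each called receptor. Sham hippocampal and cortical arrays of one number deviated together over all tested genes (correlations 0.416, 0.202 and 0.252), which is the only sign of pairing. TFS and sham hippocampal arrays did not (-0.111, -0.287 and -0.025). Alternatives covered filter, row choice, scaling, variance model, array weights, threshold, blocks and leaving out arrays.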

Additional observations from a re-analysis of the deposited data

How the results depend on the processing

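The number of receptors called between sham hippocampus and sham cortex was 2, and 2 to 3 when 1 array was left out. It was 1 in the 2 fits chosen after seeing the data, the replicate block over the 6 sham arrays alone and the fit with both sham arrays numbered 1 left out. The replicate block over all 9 arrays gave 2. The 15 pathway calls numbered 3 with the replicate block over the sham arrays, 23 at an adjusted p under 0.1 and 4 at an unadjusted p under 0.05 with a 1.5-fold difference. The other settings gave 10 to 20, and 11 to 18 with 1 array left out. Between TFS and sham hippocampus 0 receptors and 0 pathway genes were called in every fit. Among called genes, 33.3% of the receptors were higher after median centring or quantile normalization, against 0% before, because Drd5 joined. The replicate block over all 9 arrays changed no call of a receptor.

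Signs that turned belonged to differences that passed in no fit. The regional difference of Adra1a was 0.0061 with the mean of its rows and 2.2e-04 after quantile normalization. After TFS, Adra2a was 0.088 with array weights and 0.066 with both sham arrays numbered 1 left out. Adra2c was -0.010 after median centring, -0.016 after quantile normalization, -0.0018 with array weights and -0.011 without both sham arrays numbered 1. With 1 array left out, TFS differences ran from -0.089 to 0.027 for Drd2, -0.055 to 0.10 for Drd5, -0.016 to 0.16 for Adra1b, -0.13 to 0.066 for Adra2a and -0.030 to 0.048 for Adra2c.

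Signals mostly under the 7.57 limit of the negative controls, 3 arrays a group and values shared exactly between arrays limit what can be seen.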
